A study of Homo sapiens with 3 samples.

Results

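The tubulin isotypes are the separate genes that encode the alpha and beta subunits of the microtubule. The isotypes followed here were 4 alpha genes (TUBA1A, TUBA1B, TUBA1C and TUBA4A) and 6 beta genes (TUBB, TUBB2A, TUBB2B, TUBB3, TUBB4B and TUBB6), taken by gene symbol. A further 8 alpha and beta genes were looked at, each with a mean over the libraries under 1 FPKM, a normalised expression level. All 10 were found among the 25270 gene symbols of each deposited file. RNA-seq of total RNA had been done on 3 cultures of HepG2, a human hepatocellular carcinoma cell line. The first was parental HepG2 (HepG2/wild), with no treatment. The second was HepG2/metR, a metformin-resistant culture derived from HepG2 by keeping the drug, which inhibits mitochondrial complex I, in the medium for over 5 months. The third was HepG2/metR kept for 24 h in 40 mM oxamate, which blocks lactate dehydrogenase. Each condition had 1 library, so no difference has a replicate check and no p-value is given. Selection by metformin, passage in culture and the origin of the surviving cells cannot be told apart in the comparison of HepG2/metR with parental cells.

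Microtubules are hollow polymers of alpha/beta-tubulin heterodimers that build the mitotic spindle, carry vesicle transport and shape migrating cells. Vertebrates have several genes for each subunit, whose proteins are nearly identical in the body and differ mostly in the acidic carboxy-terminal tail, where motors, microtubule-associated proteins and modifying enzymes bind. Cells also adjust tubulin mRNA after transcription, since free heterodimers trigger the decay of tubulin mRNAs that are being translated. TUBB, TUBB4B, TUBA1B and TUBA1C are the isotypes most widely expressed in dividing cells. TUBB3 and TUBB2B are best known from neurons, TUBB3 also from aggressive carcinomas, and TUBB6 from mesenchymal and other non-neuronal cells.

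Values are given as FPKM, fragments scaled to transcript length and library size, which is a level per length and allows isotypes to be compared. Changes are differences of the deposited log2(FPKM + 1) values, which understate the change of low genes. With no test to call a change, rose and fell are used of isotypes past 2-fold in HepG2/metR against parental cells, or past 1.5-fold with oxamate against HepG2/metR. Of 14 hepatocyte markers, 14 were at 1 FPKM or more in parental HepG2, but 2 in HepG2/metR and 2 in the oxamate-treated library, and their summed level was 33565, 14.0 and 11.3 FPKM. Albumin (ALB) was listed at 9206, 0.747 and 0.617 FPKM and the liver transcription factor HNF4A at 68.7, 0.0156 and 0.0153 FPKM, so the HepG2/metR libraries lacked the defining transcripts of the labelled tissue. Of 8 fibroblast markers 2, 3 and 3 were at 1 FPKM or more, with 0 of them at 0 in any library, and their summed level was 5.32, 61.7 and 64.3 FPKM. Most of that sum in both HepG2/metR libraries was THY1, listed at 0.0374, 53.3 and 48.5 FPKM. Of 5 endothelial markers 0 reached 1 FPKM in any library, and their summed level was 0.347, 0.0724 and 0.230 FPKM. The part of these marker differences in the tubulin values was not tested.

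Total alpha-tubulin mRNA was dominated in every library by TUBA1B and TUBA1C, the ubiquitous alpha isotypes of dividing cells. TUBA1B had 788 FPKM in the parental library, 1408 in the HepG2/metR library and 659 in the library treated with oxamate. The HepG2/metR library was the highest and the oxamate-treated library the lowest. The change was 0.84 in HepG2/metR against parental, short of 2-fold, and -1.09 with oxamate, the largest fall of the 10 isotypes. TUBA1C was listed at 420, 608 and 314 FPKM in the same order, with changes of 0.53 and -0.95. TUBA1B and TUBA1C thus had the same order of libraries, and both were lower with oxamate than in parental cells, by 1.19-fold and 1.34-fold. TUBA1A, the main alpha isotype of developing neurons, was listed at 37.2, 38.9 and 32.6 FPKM, with changes of 0.06 and -0.25, neither past its threshold. TUBA4A, an alpha isotype whose gene does not encode the final tyrosine, was listed at 3.17, 0.109 and 0.0888 FPKM. It fell by 1.91 on the log2(FPKM + 1) scale in HepG2/metR, and the oxamate change of -0.03 lies between levels close to 0.

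**Figure D1:**
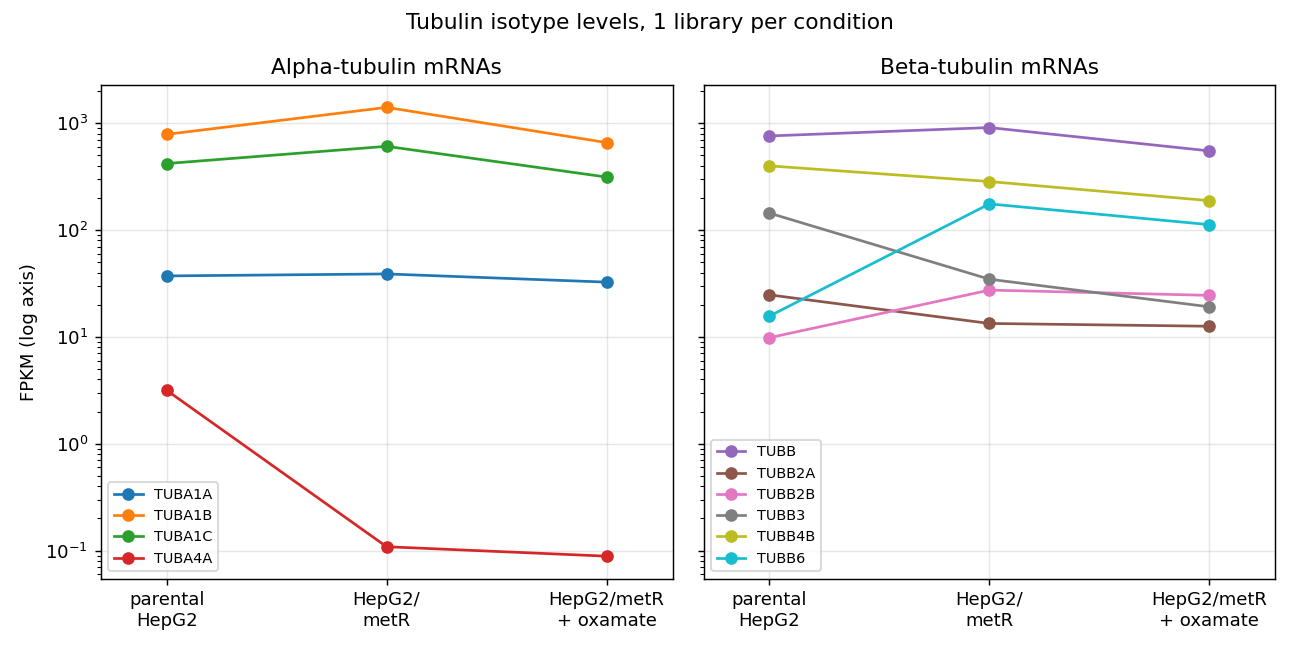
Level of each isotype in FPKM on a log axis (left, alpha genes, right, beta genes) in the 3 libraries; each point is 1 library and the lines only connect points of a gene. TUBA1A, TUBA1B, TUBA1C, TUBB, TUBB2B and TUBB6 are highest in HepG2/metR, and TUBB3 and TUBB6 cross between parental HepG2 and HepG2/metR.

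The beta isotypes divided into an abundant pair and lesser isotypes that moved in opposite directions. TUBB, the general beta isotype of proliferating cells, had 761 FPKM in the parental library, 911 in HepG2/metR and 551 with oxamate, with changes of 0.26 and -0.72. TUBB4B, the other widely expressed beta isotype, was listed at 399, 285 and 189 FPKM, lowest in the oxamate-treated library. Its changes were -0.49 and -0.59, and with oxamate it was just past the threshold of 1.5-fold, which is 0.58 on the log2 scale. The next isotype, outside that threshold, was TUBA1A.

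TUBB6 showed the largest difference of the family between parental and HepG2/metR cells. Its level was 15.7 FPKM in parental cells, 176 in HepG2/metR and 112 with oxamate. TUBB6 rose by 3.41 on the log2 scale in HepG2/metR, an 11.2-fold ratio of levels, and fell by 0.64 with oxamate, staying 7.17-fold above the parental level. The summed fibroblast markers given above were also higher in both HepG2/metR libraries, mostly through THY1. Among these markers COL1A1, COL1A2 and COL3A1 were lower in HepG2/metR than in parental cells, COL1A1 at 0.494 against 1.22 FPKM, and the others were higher. The part of the markers in the TUBB6 difference was not tested. TUBB3 went the other way, from 144 FPKM in parental cells to 34.7 in HepG2/metR and 19.1 with oxamate. It fell by 2.02 on the log2 scale in HepG2/metR and by a further 0.83 with oxamate, and was then 7.53-fold below the parental level. TUBB3 was thus 9.19 times as high as TUBB6 in parental cells, and TUBB6 was 5.07 times as high as TUBB3 in HepG2/metR. Of 9 neuron markers 1 was at 1 FPKM or more in parental cells, where TUBB3 was highest, and 3 in each HepG2/metR library. Their summed level was 2.78, 6.52 and 7.93 FPKM, in parental cells almost all of it SYP. SNAP25 was listed at 0, 1.65 and 1.55 FPKM and INA at 0.0405, 2.73 and 3.75 FPKM. SYP was at 2.74, 2.04 and 2.42 FPKM and NEFL, NEFM, ELAVL3 and ELAVL4 at 0 in every library. The part of the neuron markers in the TUBB3 difference was not tested.

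TUBB2A and TUBB2B, which lie side by side on chromosome 6, also exchanged places. TUBB2A was listed at 24.8, 13.4 and 12.6 FPKM and TUBB2B at 9.85, 27.4 and 24.5 FPKM. TUBB2B rose by 1.39 on the log2 scale in HepG2/metR, while the change of TUBB2A was -0.84, short of 2-fold. With oxamate the changes were -0.08 for TUBB2A and -0.16 for TUBB2B. The ratio of TUBB2B to TUBB2A was 0.398 in parental cells, 2.05 in HepG2/metR and 1.95 with oxamate, so both HepG2/metR libraries listed the reversed order. The coding sequences of TUBB2A and TUBB2B are 98.2% identical, so the exchange rests on how their reads were divided.

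With oxamate 6 of the 10 isotypes fell at least 1.5-fold, against 3.82% of all genes tested. The promoters of these 6, and of the TUBB2A and TUBB2B pair that exchanged places in HepG2/metR, are shown because their members moved together or apart. Each is the 250 bases before the RefSeq start nearest to that of the principal GENCODE transcript, read 5′ to 3′ on the gene's strand, from RefSeq in build GRCh38.p14. That start was 0 bases from the GENCODE start for TUBA1B and 18 bases upstream of it for TUBB2A. For the other windows shown it lay downstream, by up to 182 bases for TUBB6, so part of each lies inside the GENCODE transcript. The windows of TUBA1A and TUBA4A, counted below but not shown, were also downstream, by 244 and 114 bases. Capitals mark the motifs listed after the sequences. The alpha windows lie at chr12:49131396-49131645 (minus strand) for TUBA1B and chr12:49264832-49265081 (plus strand) for TUBA1C.
TUBA1B: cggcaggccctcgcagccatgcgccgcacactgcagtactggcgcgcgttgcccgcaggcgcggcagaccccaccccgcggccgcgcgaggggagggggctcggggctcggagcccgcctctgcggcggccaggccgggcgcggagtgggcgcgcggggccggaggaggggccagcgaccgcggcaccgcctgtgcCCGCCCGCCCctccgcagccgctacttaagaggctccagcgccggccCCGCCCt
TUBA1C: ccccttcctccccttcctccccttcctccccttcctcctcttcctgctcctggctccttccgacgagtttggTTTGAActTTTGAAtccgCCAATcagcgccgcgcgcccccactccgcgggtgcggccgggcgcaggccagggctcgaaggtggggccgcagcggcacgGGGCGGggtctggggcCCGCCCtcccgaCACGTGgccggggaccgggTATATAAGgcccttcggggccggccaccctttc
The windows of the beta isotypes that fell with oxamate lie at chr6:30720102-30720351 (plus strand) for TUBB, chr9:137241037-137241286 (plus strand) for TUBB4B, chr16:89923092-89923341 (plus strand) for TUBB3 and chr18:12307991-12308240 (plus strand) for TUBB6.
TUBB: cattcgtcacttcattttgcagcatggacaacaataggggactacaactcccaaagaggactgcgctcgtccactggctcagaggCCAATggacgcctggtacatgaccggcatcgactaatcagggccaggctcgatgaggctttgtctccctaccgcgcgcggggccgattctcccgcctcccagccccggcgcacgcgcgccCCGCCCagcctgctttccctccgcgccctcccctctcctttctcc
TUBB4B: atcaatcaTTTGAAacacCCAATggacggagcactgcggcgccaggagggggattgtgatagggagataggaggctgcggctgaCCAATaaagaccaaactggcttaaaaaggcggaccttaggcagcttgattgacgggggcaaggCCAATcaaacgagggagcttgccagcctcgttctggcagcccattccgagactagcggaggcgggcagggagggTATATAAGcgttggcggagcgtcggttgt
TUBB3: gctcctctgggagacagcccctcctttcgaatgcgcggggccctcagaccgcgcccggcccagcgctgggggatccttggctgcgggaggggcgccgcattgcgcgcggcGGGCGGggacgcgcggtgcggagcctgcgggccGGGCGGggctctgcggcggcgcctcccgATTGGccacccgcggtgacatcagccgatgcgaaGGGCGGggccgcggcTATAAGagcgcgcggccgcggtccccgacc
TUBB6: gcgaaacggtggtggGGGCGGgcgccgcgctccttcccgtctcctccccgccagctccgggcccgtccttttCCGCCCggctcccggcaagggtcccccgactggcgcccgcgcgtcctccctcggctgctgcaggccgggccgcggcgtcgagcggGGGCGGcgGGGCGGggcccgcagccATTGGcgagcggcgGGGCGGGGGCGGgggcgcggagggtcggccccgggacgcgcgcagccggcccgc
The windows of the pair lie at chr6:3157545-3157794 (minus strand) for TUBB2A and chr6:3227654-3227903 (minus strand) for TUBB2B.
TUBB2A: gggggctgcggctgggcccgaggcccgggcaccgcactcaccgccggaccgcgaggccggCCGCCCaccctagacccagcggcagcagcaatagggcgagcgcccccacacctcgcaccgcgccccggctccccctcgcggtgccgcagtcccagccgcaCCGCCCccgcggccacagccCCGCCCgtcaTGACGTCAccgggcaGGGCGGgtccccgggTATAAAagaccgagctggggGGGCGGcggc
TUBB2B: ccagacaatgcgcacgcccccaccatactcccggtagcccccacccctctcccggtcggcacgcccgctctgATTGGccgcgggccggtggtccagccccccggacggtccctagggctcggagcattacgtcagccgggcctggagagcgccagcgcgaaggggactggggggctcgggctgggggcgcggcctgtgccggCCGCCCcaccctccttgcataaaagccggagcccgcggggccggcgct

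The motifs searched on both strands were CCAAT (the box bound by NF-Y), GGGCGG (the GC box bound by Sp1), TTTGAA (the cell cycle homology region, an element of genes repressed outside G2/M), CACGTG (an E-box), TGACGTCA (the cyclic AMP response element) and, for E2F, TTTCCCGC, TTTCGCGC, TTTGCCGC and TTTGGCGC. The TATA box was searched on the gene's strand only, as TATAAA, with the variant TATAAG and with the further variant TATATA, and overlapping matches were counted separately. A CCAAT box was in 7 of the 10 tubulin windows, against 32.0% of the 35116 promoter windows in the table, and a GC box in 8, against 42.6%. TATA letters were in 6 windows, against 11.6% of all, and those of TUBA1C, TUBB4B, TUBB3 and TUBB2A are seen near the 3′ end of the sequences above. TTTGAA was in 2 windows, those of TUBA1C and TUBB4B, which is near the 13.3% of all. TUBA1C and TUBB4B fell with oxamate, as did TUBA1B, TUBB, TUBB3 and TUBB6, whose windows lack TTTGAA. The E2F letters were in 0 of the 10 windows, against 2.79% of all. TUBA1B, with the largest fall, held 3 GC boxes, 2 of them overlapping, and none of the other motifs. TUBB2A held the cyclic AMP response element, found in 1.65% of all windows, and TUBB2B did not. These matches describe letters only, and the part of any motif in the oxamate changes was not tested.

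Summed over the isotypes, alpha-tubulin mRNA came to 1248 FPKM in parental cells, 2055 in HepG2/metR and 1006 with oxamate, and beta-tubulin mRNA was 1354, 1447 and 908 FPKM. From parental cells to HepG2/metR, alpha mRNA differed by a factor of 1.65 and beta mRNA by a factor of 1.07, both upward. With oxamate, alpha mRNA was 2.04-fold lower and beta mRNA 1.59-fold lower. The ratio of alpha to beta mRNA was 0.921 in parental cells, 1.42 in HepG2/metR and 1.11 with oxamate. With oxamate the sum of the 10 isotypes fell by 1589 FPKM. TUBA1B alone fell by 749 FPKM and TUBB fell by 360.03 FPKM. In bulk RNA, fewer cells that express a gene and less of its RNA per cell cannot be told apart. In the oxamate-treated library 8 isotypes were below their parental level, and TUBB6 and TUBB2B were above it.

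The composition of the beta pool differed between parental and HepG2/metR cells far more than it did with oxamate. TUBB supplied 56.2% of the beta total in parental HepG2, 63.0% in HepG2/metR and 60.7% with oxamate. The share of TUBB4B was 29.5%, 19.7% and 20.8%, that of TUBB3 10.6%, 2.40% and 2.11%, and that of TUBB6 1.16%, 12.2% and 12.4%. TUBB6 replaced TUBB3 as the third most abundant beta isotype. TUBB3 and TUBB6 together were 11.8% of the beta total in parental cells and 14.6% in HepG2/metR. The share that passed from some isotypes to others was 18.9 percentage points between parental and HepG2/metR cells and 2.57 points with oxamate. In the alpha pool the same measure was 5.37 and 2.94 points. TUBA1B supplied 63.1%, 68.5% and 65.6% of the alpha total and TUBA1C 33.6%, 29.6% and 31.2%. TUBA1A supplied 2.99%, 1.89% and 3.24%. A share is taken within 1 library and does not depend on the scaling between libraries. No interval is given for shares because the files hold no counts.

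**Figure D2:**
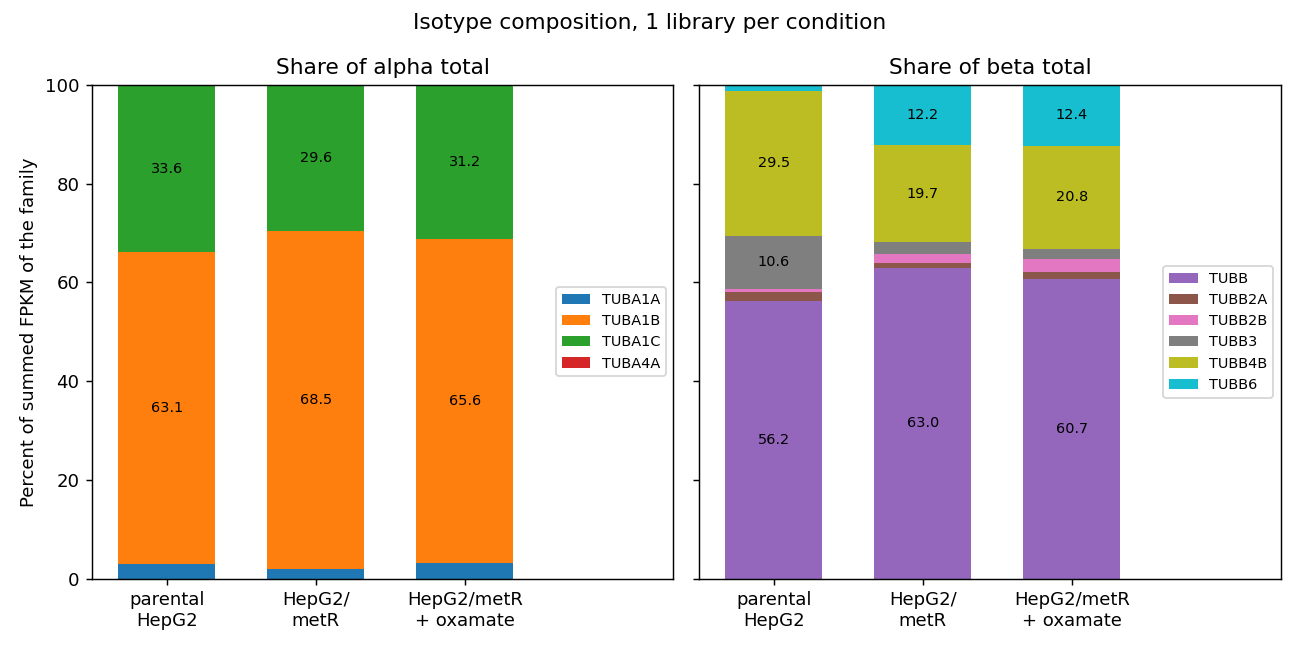
Share of each isotype in the summed FPKM of its family, in percent, stacked for each of the 3 libraries (left, alpha, right, beta). TUBB3 narrows from 10.6% to 2.40% and TUBB6 widens from 1.16% to 12.2% between parental HepG2 and HepG2/metR, and the bars of both HepG2/metR libraries look alike.

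The isotype counts are given beside those over all genes. The background was the 12210 genes with a mean of at least 1 FPKM over the libraries, which kept all 10 isotypes, TUBA4A only through its parental level. Of the 10 isotypes, 2 had at least 2-fold more mRNA in HepG2/metR (TUBB2B and TUBB6), against 16.6% of all genes, and 2 were at least 2-fold lower (TUBB3 and TUBA4A), against 17.6% of all genes. These shares are near the background. With oxamate, 6 isotypes fell at least 1.5-fold (TUBA1B, TUBA1C, TUBB3, TUBB, TUBB6 and TUBB4B), against 3.82% of all genes, and 0 rose that far, against 4.3%. The median change with oxamate was -0.62 over the 10 isotypes and 0.02 over all genes. TUBB6 was the 1 isotype both 2-fold higher in HepG2/metR and 1.5-fold lower with oxamate, as were 0.958% of all genes. Both comparisons share the HepG2/metR library. Highly expressed genes fell more often: of the 753 genes with a mean of at least 100 FPKM, 12.2% fell at least 1.5-fold with oxamate and 1.2% rose. The 5 isotypes in that range were TUBA1B, TUBB, TUBA1C, TUBB4B and TUBB6, all among the 6 that fell, and TUBB6 reached it only through its level in HepG2/metR and with oxamate. The part of expression level in the tubulin result was not tested. After scaling to equal library totals, 3 isotypes fell at least 1.5-fold with oxamate (TUBA1B, TUBA1C and TUBB3), and TUBB2A and TUBB2B changed sign, to 0.08 and 0.01. The median over all genes was then 0.17. The share of all genes past 1.5-fold is not given at that scaling, so the count of 3 has no background beside it.

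**Figure D3:**
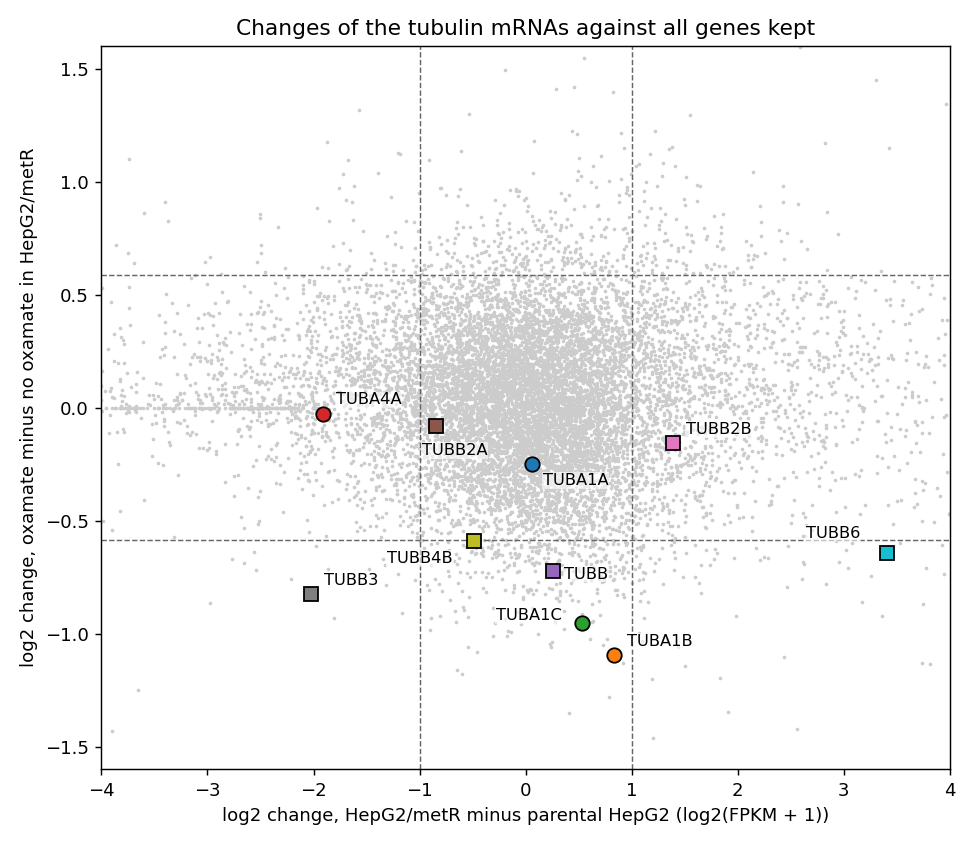
Log2 change in HepG2/metR against parental HepG2 (x) and with oxamate (y), on the log2(FPKM + 1) scale, for the genes kept (grey; 576 lie outside the axes) and the 10 isotypes (circles, alpha, squares, beta); dashed lines mark 2-fold and 1.5-fold. Of the 10 labelled points 6 lie below the lower dashed line, with TUBB3 and TUBB6 at opposite sides on the x axis.

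The nearest listed genes on each side of the isotypes are given with their values, and whether isotypes changed together with them was not tested. The alpha genes TUBA1B, TUBA1A and TUBA1C are neighbours on chromosome 12. LMBR1L, next to TUBA1B, was listed at 6.88, 7.36 and 7.90 FPKM, and PRPH, next to TUBA1C, at 0, 0.0418 and 0.0409 FPKM. AFG3L2, next to TUBB6, was listed at 36.2, 17.9 and 15.8 FPKM, lower in HepG2/metR where TUBB6 was higher, and CIDEA on the other side at 0 in every library. MC1R and DEF8, on either side of TUBB3, had changes of -1.01 and -0.46 in HepG2/metR and 0.21 and -0.27 with oxamate. MDC1 and FLOT1, beside TUBB, changed by -0.03 and 0.59 in HepG2/metR and by -0.40 and -0.04 with oxamate. SLC34A3 and NELFB, beside TUBB4B, changed by -0.99 and -0.57 in HepG2/metR and by 0.02 and -0.24 with oxamate. BPHL, beside TUBB2A, and PSMG4, beside TUBB2B, changed by -0.82 and -0.44 in HepG2/metR. STK16 and TUBA4B, beside TUBA4A, changed by -0.20 and -0.43 in HepG2/metR, TUBA4B from 0.352 FPKM to 0. Both neighbours of TUBB3, TUBB4B and TUBA4A, and BPHL beside TUBB2A, were thus lower in HepG2/metR, as were those isotypes. AFG3L2 and PSMG4 were lower where TUBB6 and TUBB2B were higher. With oxamate 0 of these neighbours fell 1.5-fold, which is near the 3.82% of all genes. PRPH, CIDEA, SLC34A3 and TUBA4B had means under 1 FPKM, outside that background. Their levels in HepG2/metR were too low for a fall of 1.5-fold on the log2(FPKM + 1) scale.

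The genes most like the leading isotypes were found by the distance between genes in the plane of the 2 changes, over 3 libraries and 6551 other genes with a mean of at least 10 FPKM. Among the nearest to TUBA1B were CENPU, CKS1B, AURKB and POLD2, at distances of 0.09 to 0.22 on the log2 scale. CKS1B, which encodes a subunit of cyclin-dependent kinase complexes, was listed at 102, 175 and 85.3 FPKM, and AURKB, a mitotic kinase, at 44.8, 77.8 and 31.5 FPKM. Nearest to TUBB were DKC1, HAT1, UBB, RFC5 and PDCD6, at distances of 0.03 to 0.07. UBB, a polyubiquitin gene, was listed at 611, 749 and 465 FPKM.

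How far reads can be assigned to single isotypes differed between genes. Within the alpha genes TUBA1A, TUBA1B and TUBA1C the coding sequences of the principal GENCODE transcripts were 96.3% to 97.3% identical, and those of TUBB2A and TUBB2B 98.2%, while other pairs of a family were 81.3% to 88.8% identical. Of all 50-base windows of the transcript, 12.9% were found in no other gene for TUBA1B, 48.2% for TUBA1A, 59.9% for TUBA1C and 69.2% for TUBB. The value was 85.4% for TUBB4B and 99.0% for TUBB6, whose transcript was nearly free of shared stretches. For TUBB2A and TUBB2B it was 34.5% and 47.8%, and for TUBA4A 67.4%, with 27.4% of its windows shared with the adjacent gene STK16. Genes that overlap an isotype on the genome were counted as other genes. For TUBB3 it was 10.6%, because 89.4% of its windows also lie in an annotated read-through gene from the neighbouring locus, AC092143.1. With the other isotypes TUBB3 shared 8.66% of its windows. How the authors' program divided reads among such genes is not given in the sources used here, so the split among TUBA1A, TUBA1B and TUBA1C, that between TUBB2A and TUBB2B, and the level and share of TUBB3 are uncertain. TUBA1B also shared 68.7% of its windows with AC011603.2, a gene outside the 10, so its sum with the paralogs does not remove that uncertainty. Whether the authors' annotation held AC092143.1 or AC011603.2 is not known. Summed, the TUBA1A, TUBA1B and TUBA1C levels changed by 0.72 in HepG2/metR and by -1.03 with oxamate. The sum of TUBB2A and TUBB2B was 34.6, 40.8 and 37.1 FPKM, with changes of 0.23 and -0.13. The sum cannot show whether its members exchanged places, which rests on how their reads were divided.

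The genes that fold, nucleate, modify and bind tubulin were taken as lists and are described by their counts and medians, beside the medians of 0.02 over all genes in each comparison. Of 22 genes for folding and assembly of the heterodimer (prefoldin, the CCT chaperonin, the tubulin cofactors and TTC5, which recognises nascent tubulin), 0 fell and 0 rose at least 1.5-fold with oxamate, near the 3.82% and 4.3% of all genes. Their median change was -0.31, with 19 of 22 lower, and -0.14 after scaling to equal library totals. Over all genes 5563 of 12210 were lower with oxamate. PFDN6, a prefoldin subunit, had the lowest value, listed at 148, 274 and 187 FPKM, a change of -0.55, and TBCEL the highest, at 0.50. In HepG2/metR, 2 of the 22 rose at least 2-fold, against 16.6% of all genes, the prefoldin subunit VBP1 by 1.19 and CCT8 by 1.04, the latter outside the naming rule and given to complete the count. TTC5, listed at 19.2, 9.21 and 9.41 FPKM, had a change of -0.99 in HepG2/metR, and TBCA, the most abundant gene of the list, was listed at 460, 599 and 551 FPKM.

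Of 14 genes of the gamma-tubulin ring complex, which nucleates microtubules, and its anchors, 0 passed 1.5-fold with oxamate in either direction, near the 3.82% and 4.3% of all genes, and the median was 0.07. TUBG1, its main gamma-tubulin, was listed at 75.6, 85.6 and 62.4 FPKM, a change of -0.45 with oxamate, and AKAP9 changed by 0.57. In HepG2/metR the small subunit gene MZT1 rose by 1.30, and MZT2A and MZT2B fell by 1.77 and 1.70 on the log2 scale, so 1 rose and 2 fell, against 16.6% and 17.6% of all genes. MZT2A and MZT2B are close paralogs, and MZT2B was named to complete the count of 2 that fell.

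Of 23 genes found for enzymes that modify tubulin, in the tail or elsewhere, and for a cofactor, 13 were kept. Their median was -0.16 in HepG2/metR and 0.14 with oxamate, or 0.30 with oxamate after scaling to equal library totals. With oxamate 11 of the 13 were higher, against 6461 of the 12210 genes. TTL, the tubulin tyrosine ligase, was listed at 23.3, 22.9 and 25.3 FPKM. VASH1, a tubulin carboxypeptidase, rose by 0.89 with oxamate, from 0.918 to 2.56 FPKM, and the polyglutamylases TTLL7 and TTLL4 changed by 1.15 and -1.09 in HepG2/metR. These were 1 of 13 higher with oxamate, against 4.3% of all genes, and 1 higher and 1 lower in HepG2/metR, against 16.6% and 17.6%. VASH1 passed the filter only through the oxamate-treated library and TTLL7 only through both HepG2/metR libraries, where each was high. TTLL12 was the lowest with oxamate, at -0.24.

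Of 31 microtubule-binding and severing proteins, 22 were kept. In HepG2/metR 6 rose and 3 fell at least 2-fold, and with oxamate 1 fell and 1 rose at least 1.5-fold. Over all genes these shares were 16.6%, 17.6%, 3.82% and 4.3%. MAP9 and DCLK1 among those that rose, and CAMSAP3 among those that fell, passed the filter only through the libraries where they were high. The 3 that fell were CAMSAP3, MAPRE2 and STMN3, the last pair outside the naming rule. MAP9 rose by 2.75 in HepG2/metR and CAMSAP3, which caps minus ends, fell by 3.32 on the log2 scale, from 10.9 to 0.190 FPKM. With oxamate STMN1, which binds free heterodimers, fell by 0.67 and MAPRE3, a plus-end protein, rose by 0.66. Of the other tubulin genes, 12 in the list, 5 reached 1 FPKM in a library: TUBG1, TUBG2, TUBD1, TUBE1 and TUBB4A, a beta isotype of neurons listed at 0.109, 1.45 and 1.42 FPKM. None of the 4 kept passed a threshold, and their median with oxamate was -0.11, or 0.04 after scaling to equal library totals. Of the 11 microtubule genes that the study picked from these same libraries, 11 rose at least 2-fold in HepG2/metR, against 16.6% of all genes. With oxamate 7 fell at least 1.5-fold, against 3.82% of all genes, and the median was -0.62. The kinetochore gene NDC80 was lowest, at -0.78, and KIF18A, KNSTRN, NUSAP1 and PRC1 were short of the threshold. The study's methods give 1.5-fold for the decrease with oxamate, which these genes did not reach here. The main text of the study names 5 of the 11, all kinesins, and does not name the others. KIF18A had the largest rise in HepG2/metR, at 1.92, and the smallest fall with oxamate, at -0.51. Because the study describes picking its genes on this pattern, the counts of the 11 are not independent evidence of its direction.

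**Figure D4:**
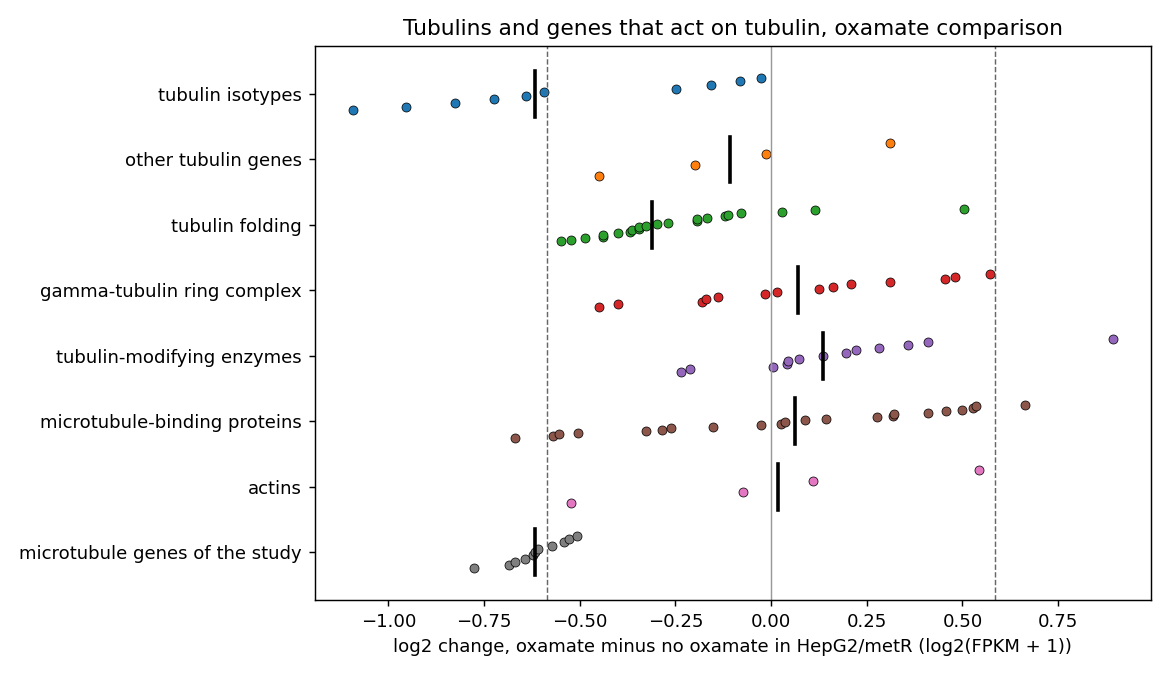
Log2 change with oxamate in HepG2/metR, on the log2(FPKM + 1) scale, for each gene kept in 8 lists (points) and the list median (black bar); dashed lines mark 1.5-fold. Of the tubulin isotypes 6 of 10 lie left of the lower dashed line, and of the folding and gamma-tubulin ring genes 0 do.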

How the data were processed

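Total RNA of 3 cultures had been sequenced, with 1 library for parental cells, 1 for HepG2/metR and 1 for HepG2/metR with oxamate. The authors deposited 1 value per gene symbol and library on a log2 scale. They were read as log2(FPKM + 1), since 2 to the power of the value, minus 1, had at most 6 significant digits for 100% of values above 1. The submitters' processing notes name STAR 2.5.1b, Cufflinks 2.2.1, FastQC 0.11.5 and build hg19. The annotation, the options for reads that match several genes and the filters are not given in the sources used here.

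FPKM was back-transformed and nothing was rescaled. Groups were taken from the sample titles. With 1 library per group no test was run. A change was the difference of the deposited values, called at 2-fold in HepG2/metR against parental cells and at 1.5-fold with oxamate, after the study's methods, over the 12210 genes with a mean of at least 1 FPKM. Shares were percentages of the summed FPKM of the 4 alpha or 6 beta genes. The depth in reads is unknown. Relative depth, read from the ratio most often seen among values below 0.15 FPKM, was 1.21 for HepG2/metR and 1.24 for the oxamate-treated library, against 1 for parental. Each library had 11356 to 11649 genes at 1 FPKM or more. Of the symbols, 28 had become dates and were not used by name.

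Genes named were the isotypes, other tubulin genes at 1 FPKM or more, the extremes and the most abundant gene of each list, the 5 nearest patterns (1 of them is not reported here) and the neighbouring genes. The isotypes and lists were chosen with earlier results of these data known. SVBP was found under its older symbol CCDC23. Order of genes and promoters came from RefSeq (GRCh38.p14), transcripts from GENCODE release 29 (GRCh38), all 10 isotypes being matched. The files hold no coordinates. Windows of 50 and 75 bases were compared on both strands. The calculations were tested on simulated data. Python 3.11, numpy 2.4.6, pandas 2.3.3, Biopython 1.88 and matplotlib 3.10.9 were used. Alternatives were other pseudocounts (0.1 or none), scalings, filters and fold thresholds, and sums over paralogs or over all alpha and beta genes.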

Additional observations from a re-analysis of the deposited data

How the results depend on the processing

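No paired analysis was possible because each condition has 1 library, and for the same reason no library could be left out. A change was held to be stable when it kept its side of the fold threshold, with its direction where it was past it, and a count, percentage or total when it stayed within 1.5 times. At a threshold of 2-fold, 1 isotype fell with oxamate, TUBA1B, in place of 6 at 1.5-fold. Of the scalings, that to the same total moved the oxamate result most. The median of the 10 isotypes became -0.44, that of the study's 11 microtubule genes -0.45, and the count of isotypes that fell at least 1.5-fold became 3. TUBB, TUBB4B and TUBB6 were then at -0.55, -0.42 and -0.47, and values short of the threshold changed sign for TUBB2A (-0.08 to 0.08), TUBB2B (-0.16 to 0.01) and the median of the other tubulin genes (-0.11 to 0.04). That scaling moved the median of all 12210 genes to 0.17, and relative to it the isotypes were at -0.61, against -0.64 with the deposited scaling. Upper-quartile scaling moved the median of all genes in HepG2/metR to 0.15, relative to which the isotypes were at 0.16. With median-of-ratios size factors TUBB4B was at -0.583, just short of 1.5-fold, and 5 isotypes fell that far. The share of all genes past the threshold is not given at 2-fold with oxamate or at the other scalings. These isotype counts therefore have no background beside them. The pseudocount moved TUBA4A most, from -1.91 to -3.97 with 0.1 and -4.86 with none. Without a filter on low values, the percentages of all genes past the thresholds were 8.31% and 9.6% (2-fold higher and lower in HepG2/metR), 1.91% and 2.28% (1.5-fold lower and higher with oxamate) and 0.499% (both). At a mean of at least 100 FPKM, an alternative chosen after seeing the data, they were 12.2% lower and 1.2% higher with oxamate and 2.39% for both. Of the other alternative values, 65 for summary results and 130 for single isotypes and shares kept their side of the threshold or their size. The unknown depth limits TUBA4A, whose levels in HepG2/metR lie near 0.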

Other observations

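Of 6 genes for actin, which forms the other main cytoskeletal polymer beside tubulin, 4 were kept, with a median change of -0.97 in HepG2/metR, 3 of 4 being lower, and of 0.02 with oxamate. ACTB and ACTG1 encode the cytoplasmic actins. ACTB had 1310.4 FPKM in parental cells, 963 in HepG2/metR and 670.3 with oxamate, and ACTG1 at 1293, 1674 and 1805 FPKM. The changes with oxamate were -0.52 for ACTB and 0.11 for ACTG1. The muscle actin ACTA1 fell by 3.52 on the log2 scale in HepG2/metR, from 11.4 to 0.0795 FPKM, and the smooth muscle actin ACTA2 by 1.49, from 22.5 to 7.36 FPKM. With oxamate ACTA2 was listed at 11.2 FPKM, a change of 0.54. The 2 that fell at least 2-fold in HepG2/metR compare with 17.6% of all genes, and 0 of 4 passed 1.5-fold with oxamate, near the 3.82% lower and 4.3% higher over all genes. ACTA1 passed the filter only through the parental library.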
